A study of Homo sapiens with 15 samples.

Results

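The genes described here are the protein-coding rows whose symbol starts with ZNF followed by a number, in the authors' deposited table of genes that changed in HEK293FT cells. The table lists 11230 rows, of which 7447 are protein-coding and 148 are ZNF rows. The 148 rows carry 144 symbols, since ZNF302, ZNF565, ZNF708 and ZNF777 have a pair of rows each. Of the ZNF rows, 58 lie on chromosome 19 and 90 on other chromosomes. The rule uses the symbol, the gene type and the chromosome, among the rows that the authors listed.

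HEK293FT is a fast-growing human embryonic kidney cell line that is easily transfected. Every group, control included, received plasmids for dCas9-VP64, a Cas9 without nuclease activity that carries a transcriptional activator, and for the MS2-p65-HSF1 activator, together with a pool of 5 guide RNAs. In 4 groups (trex0108, trex4039, trex5008 and trex8168) the guides lay 50 to 450 bp upstream of the start of a TrEx long non-coding RNA, and the control group received non-targeting guides. Cells were selected with 2 ug/mL of puromycin from 24 h and collected for RNA at 48 h, and each group had 3 libraries of polyA RNA described as biological triplicates, 15 in all. The groups are named by library title. The target labels of the libraries titled trex5008 and trex8168 carry each other's number, and this conflict was not settled. The activation is transient and in 1 cell line, and no column says which row is a targeted TrEx RNA.

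ZNF genes encode proteins with C2H2 zinc fingers, short loops held by a zinc ion that lie side by side and read DNA bases. The largest class, found in long gene clusters on chromosome 19, carries a KRAB box at the amino end. The KRAB box binds TRIM28 (KAP1), which brings SETDB1, heterochromatin proteins and the NuRD deacetylase to the bound site, and many of these sites lie in transposable elements. ZNF genes without a KRAB box have varied roles, among them activation, RNA binding and ribosome quality control.

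Each value in the authors' deposited table is a mean normalised count over the 3 libraries of a group, a shrunken log2 fold change against control, or an adjusted p. A row entered the table where any of the 4 comparisons gave it an adjusted p under 0.1, so the shares called below hold among listed rows and not among all genes. A row is called here higher or lower where the authors' adjusted p is under 0.05. Values are given without an SD where single libraries could not be rebuilt. An approximate standard error (SE) is given for the leading genes. It was worked back from the adjusted p with the number of tests set to the listed rows, which gives the larger of the limits tried. The relative depth of the libraries could be read from the lowest group means, in which 1 read is a fixed step. The size factors, by which reads are divided, ran from 0.8393 to 1.2008 over the 15 libraries. A group mean of 100 rests on 285 to 335 reads in 3 libraries and a mean of 1000 on 2854 to 3346, by which the counting error alone is 5.5% to 5.9% and 1.7% to 1.9%. Of the 10 fixed markers of the HEK293 line, CDH2, GATA3, KRT8, LHX1, NEFM and PAX2 are among those listed. Of the markers of neurons (6), blood (5) and hepatocytes (4), 0 are listed. Of 5 fibroblast markers COL1A2 and COL3A1 are, with means of 14.7 and 249.3. Rows are listed only where they changed, so a marker's absence from the list does not show that the cells lack it. The summed mean of the listed fibroblast markers was 310.1 in control and 219.6 to 286.2 in the target groups, and its part in the results was not tested.

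The listed ZNF genes are a part of the family. GENCODE has 509 protein-coding ZNF symbols, of which 28.3% are listed, and 48.3% of GENCODE's symbols but 38.2% of the listed ones lie on chromosome 19. In addition 996 protein-coding rows, 117 of them on chromosome 19, are named only by a locus identifier, so ZNF genes among them are not counted. A KRAB box pattern was found in the reference protein of 83 members, 49 on chromosome 19 and 34 elsewhere. The other 65 members, 9 on chromosome 19 and 56 elsewhere, did not have it. Members with the pattern had a median of 12 zinc fingers (4 to 33), and those without had a median of 8 (0 to 31). The classes also differ in base composition: the median GC content of the reference transcript was 41.8% with the KRAB pattern and 51.6% without. It was 41.96% on chromosome 19 and 45.55% elsewhere, against 61.54% for the other 511 listed protein-coding rows of chromosome 19.

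Members were of moderate abundance. Their mean normalised count over all libraries in the authors' deposited table ran from 5.09 to 12353, the median being 853.0 against 1210 for all listed rows, and 140 of 148 reached 50. The 5 most abundant were ZNF24 (12353), ZNF638 (7542), ZNF146 (6981), ZNF644 (5615) and ZNF106 (4787) in the authors' deposited table. ZNF24 is a repressor with a SCAN domain, ZNF638 an RNA-binding protein linked to silencing by the HUSH complex, and ZNF644 a partner of the H3K9 methyltransferases G9a and GLP. Per kilobase of reference transcript the order was ZNF24 (1959), ZNF146 (1847), ZNF638 (1106), ZNF644 (974.4) and ZNF106 (651.5) as mean counts. Reads of near-identical paralogs may be split in the counting, and 67 members overlap another listed row on either strand, so the values of both kinds are uncertain.

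Upstream sequences of the chromosome 19 genes that led the rises in trex4039 are shown first, because they share a block of letters. ZNF675, ZNF681 and ZNF85 are KRAB genes of chromosome band 19p12, and ZNF91, a repressor of SVA repeats in the same band, holds the block too. The 250 bases before each RefSeq start site (GRCh38.p14) are printed 5′ to 3′ on the gene's strand, with capitals for the longest run of letters common to ZNF675, ZNF681 and ZNF85.
ZNF675 (chr19:23687213-23687462, minus strand): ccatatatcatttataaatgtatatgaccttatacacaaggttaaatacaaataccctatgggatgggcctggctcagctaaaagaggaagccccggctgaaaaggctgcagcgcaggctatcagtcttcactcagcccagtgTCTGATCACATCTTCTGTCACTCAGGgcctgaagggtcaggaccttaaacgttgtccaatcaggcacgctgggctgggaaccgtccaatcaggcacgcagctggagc
ZNF681 (chr19:23758892-23759141, minus strand): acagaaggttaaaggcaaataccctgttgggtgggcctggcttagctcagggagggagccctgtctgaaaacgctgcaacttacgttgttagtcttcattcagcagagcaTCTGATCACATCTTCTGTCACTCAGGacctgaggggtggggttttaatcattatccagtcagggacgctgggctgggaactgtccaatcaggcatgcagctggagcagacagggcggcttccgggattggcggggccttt
ZNF85 (chr19:20923001-20923250, plus strand): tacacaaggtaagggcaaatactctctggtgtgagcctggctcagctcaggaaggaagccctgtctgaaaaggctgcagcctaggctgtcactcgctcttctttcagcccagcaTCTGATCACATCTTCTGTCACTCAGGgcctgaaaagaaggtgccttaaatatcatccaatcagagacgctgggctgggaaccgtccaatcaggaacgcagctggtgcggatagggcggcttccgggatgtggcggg
ZNF91 (chr19:23395472-23395721, minus strand): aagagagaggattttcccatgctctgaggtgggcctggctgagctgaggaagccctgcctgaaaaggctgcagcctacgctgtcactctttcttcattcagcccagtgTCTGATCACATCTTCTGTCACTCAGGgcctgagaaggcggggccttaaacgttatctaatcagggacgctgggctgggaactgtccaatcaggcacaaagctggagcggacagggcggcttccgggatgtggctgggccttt
The block is 26 bases long. It was found in 5 of 27303 RefSeq promoter windows of the same length (0.0183%), and the 5 are ZNF675, ZNF681, ZNF85, ZNF91 and ZNF208. ZNF208 is not a listed member. Over the whole window ZNF681 and ZNF85 were 79.4% identical, ZNF675 and ZNF85 63.6%, and ZNF675 and ZNF681 62.3%. The 3 called genes were chosen for their rise, so the shared block is a description of related genes.

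RefSeq windows were matched for 125 of the 144 symbols. For 106 of them, sequence shortly past the RefSeq start site was found in a GENCODE transcript of the gene. Short motifs were searched on both strands, with overlapping matches allowed. CCGGAAG, the core of ETS sites, was present in 31.2% of the members' windows and 8.82% of all 27303 windows. CCAAT was present in 44.0% of the members' windows and 33.0% of all, and GGGCGG, the core of SP sites, in 54.4% and 42.3%. Among the 72 matched symbols that rose in trex4039, 36.1% held CCGGAAG, 41.7% held CCAAT and 51.4% held GGGCGG. Among the 21 that fell, 23.8%, 33.3% and 61.9% did, and no test of these shares was made. Median GC content of the windows was 59.6% for members and 58.0% for all.

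In trex4039 the ZNF genes with a KRAB pattern were mostly higher than in control, and those without were divided. Of the 148 members, 78 rose and 28 fell, where 37.1% and 33.7% of all listed rows tested did in the authors' deposited table. This is 52.7% and 18.9% of the members, and 106 members were called in either direction, where 70.7% of listed rows were. Their median log2 fold change was 0.21, against 0.032 over all listed rows and 0.085 over listed protein-coding rows. With the KRAB pattern 58 of 83 rose and 6 fell, with a median log2 fold change of 0.255. Without it 20 of 65 rose and 22 fell, with a median of -0.05.

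On chromosome 19, 36 of 58 members rose and 6 fell in trex4039, and the authors' deposited table gives a median log2 fold change of 0.24. Elsewhere 42 of 90 rose and 22 fell, with a median of 0.171. Within the KRAB class the chromosome made little difference to the median, which was 0.259 on chromosome 19 and 0.25 elsewhere. Other protein-coding rows of chromosome 19 went the opposite way: of 508 tested, 24 were higher and 367 lower, with a median log2 fold change of -0.278. The plot of fold changes by chromosome shows these distributions.

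**Figure D1:**
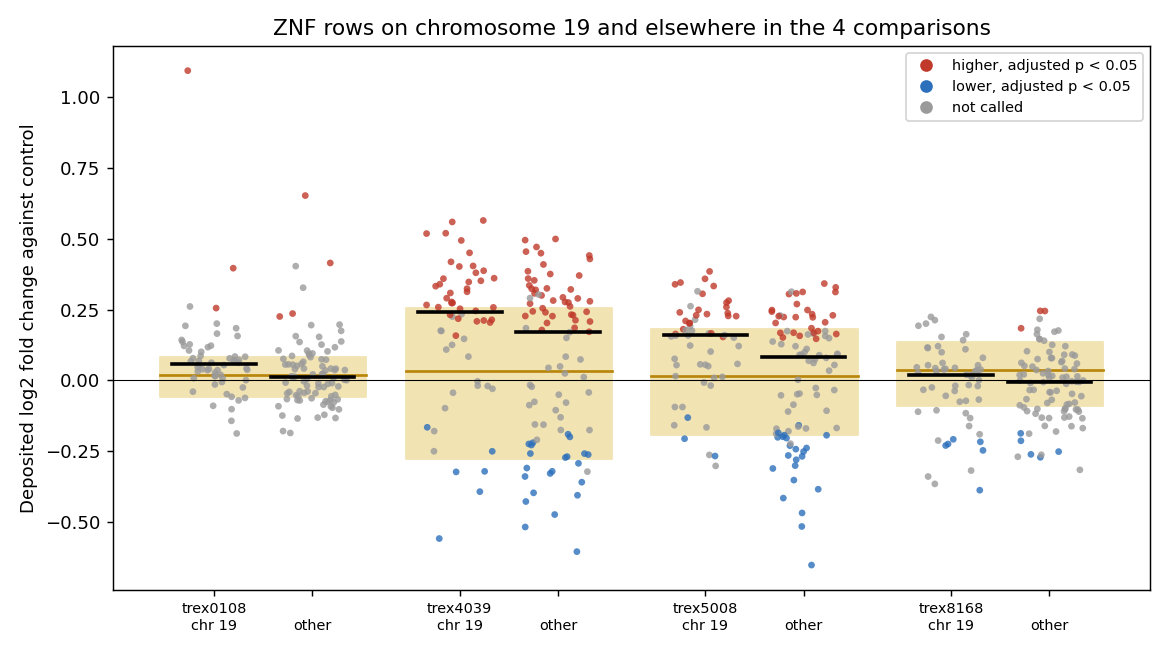
Deposited log2 fold change of each ZNF row against control (y axis) in the 4 comparisons, with rows of chromosome 19 left and others right. Black bars are medians, and the gold line and band are the median and quartiles of all 11230 listed rows. Colours mark rows higher or lower at an adjusted p under 0.05. In trex4039 the median is 0.24 on chromosome 19 and 0.171 elsewhere, against 0.032 over all listed rows.

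Transcript GC content moved with these directions. The 78 members that rose in trex4039 had a median GC content of 41.2% (33.8% to 51.2%), and the 28 that fell had 59.8% (39.0% to 70.3%). Within a range of GC the members lay near other listed protein-coding genes. Below 40% GC their median log2 fold change was 0.323, against 0.32 for 1058 other genes, and at 55% or more it was -0.228, against -0.268 for 2180. At 42% to 45% the values were 0.228 and 0.239. With the trend over GC removed, the members' median was 0.005, and -0.008 on chromosome 19 against 0.008 elsewhere. The other protein-coding rows of chromosome 19 then had a median of -0.018. After this removal 15 of the 106 called members, 6 risen and 9 fallen, retained both the direction and 0.5 or more of the size. Within ranges of GC the classes with and without the KRAB pattern had no constant order. Their medians were 0.322 and 0.323 below 40%, 0.239 and 0.261 at 40% to 42%, and 0.262 and -0.001 at 42% to 45%, where 6 members lack the pattern. They were 0.183 and 0.261 at 45% to 50%, -0.258 and -0.022 at 50% to 55%, where 3 members have the pattern, and -0.175 and -0.254 at 55% or more.

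**Figure D2:**
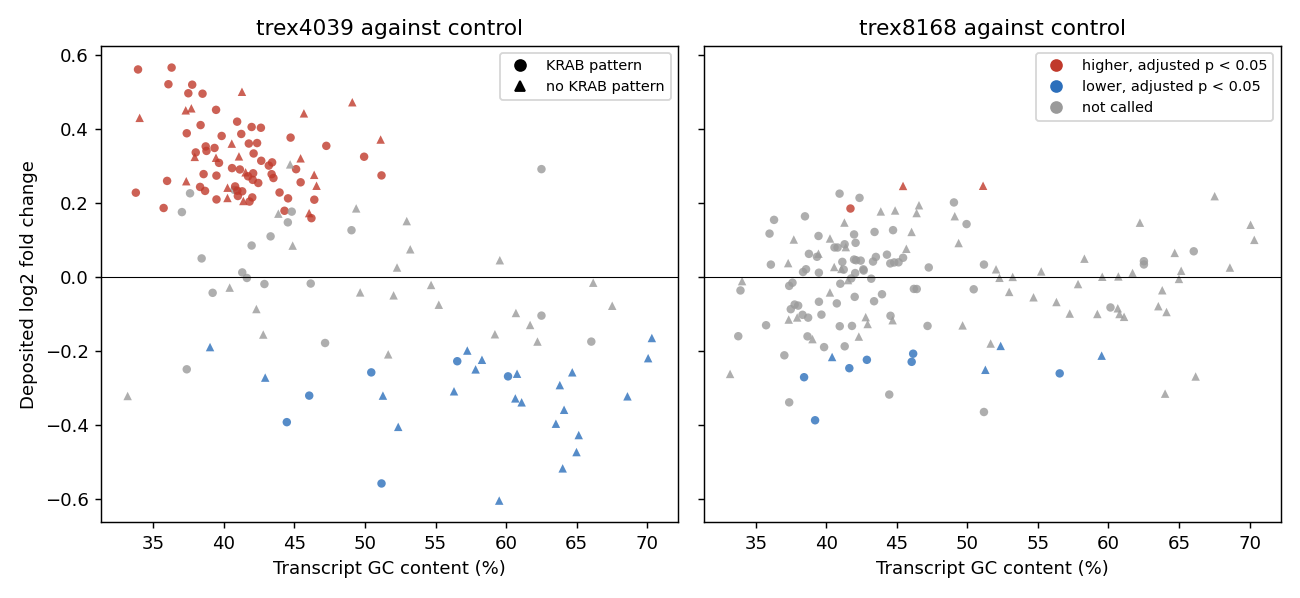
Deposited log2 fold change (y axis) of the ZNF rows against GC content of the reference transcript in percent (x axis). The left panel is trex4039 and the right panel trex8168. Circles have the KRAB pattern, triangles do not, and colours mark rows higher or lower at an adjusted p under 0.05. In trex4039 risen rows have a median GC content of 41.2% and fallen rows 59.8%, while in trex8168 the 11 fallen rows have a median of 46.0%.

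Of the 6 largest rises in trex4039, 5 were of KRAB genes. ZNF675, also known as an inhibitor of TRAF6 signalling, had an authors' mean of 746.7 in control, 872.3 in trex0108, 1149 in trex4039, 943.5 in trex5008 and 839.7 in trex8168. It is highest in trex4039 and above control in each target group. Its log2 fold change in trex4039 was 0.57 (SE about 0.081, adjusted p 5.79e-11, authors' deposited table). ZNF681 had means of 120.4, 124.7, 193.2, 152.9 and 116.1 in the same order, with a log2 fold change of 0.56 in trex4039 (adjusted p 3.7e-06, authors' deposited table). ZNF85 had means of 237.7, 259.8, 366.4, 279.2 and 243.6, with a log2 fold change of 0.52 in trex4039 (adjusted p 8.29e-06, authors' deposited table). These 3 genes share the block printed above, and for each the trex5008 mean came second.

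ZNF91, which holds the same block, had a mean of 885.6 in control and 1011 in trex4039, a log2 fold change of 0.17 that did not pass the threshold (adjusted p 0.0685, authors' deposited table). ZNF569, of the 19q13.12 cluster, had means of 806.8 in control, 849.7 in trex0108, 1182 in trex4039, 956.4 in trex5008 and 763.1 in trex8168, and rose by 0.52 in trex4039 (adjusted p 1.04e-13, authors' deposited table). ZNF501 on chromosome 3 (256.4 to 378.6) and ZNF141 on chromosome 4 (61.9 to 101.7) each rose by 0.50 on the log2 scale, per the authors' deposited table. ZNF501 has no KRAB pattern in its reference protein, and ZNF141 has.

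Abundant members rose as well in trex4039. ZNF24 had means of 10631 in control, 11650 in trex0108, 14782 in trex4039, 13262 in trex5008 and 11430 in trex8168, with a log2 fold change of 0.46 in trex4039 (SE about 0.058, adjusted p 1.7e-13, authors' deposited table). ZNF644 went from 4948 to 6844, a rise of 0.45 on the log2 scale, and ZNF638 from 6742 to 8471, a rise of 0.32, per the authors' deposited table. ZNF521, a factor of progenitor cells of blood and brain, rose by 0.28.

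Of the 6 largest falls in trex4039, 5 were of members without a KRAB pattern, and the reference protein of ZNF565, whose short row came second, has it. ZNF692 had means of 761.1 in control, 722.0 in trex0108, 483.7 in trex4039, 603.6 in trex5008 and 649.6 in trex8168. All 4 target groups lie below control, and trex4039 lies lowest. Its log2 fold change in trex4039 was -0.60 (SE about 0.074, adjusted p 1.62e-14, authors' deposited table). ZNF598, the ubiquitin ligase that marks collided ribosomes, had means of 4151, 4001, 2943, 3215 and 4135 in the same order and fell by a log2 fold change of 0.47 in trex4039 (adjusted p 3.57e-14, authors' deposited table). ZNF703, a corepressor known as an oncogene of luminal breast cancer, had means of 4147, 4639, 3033, 2843 and 4197, with a log2 fold change of -0.43 in trex4039 and -0.52 in trex5008 in the authors' deposited table. ZNF598 and ZNF703 are near control in trex8168 and low in trex4039 and trex5008.

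ZNF843 (170.6 in control, 107.9 in trex4039 and 95.5 in trex5008) and ZNF691 (992.4, 737.1 and 796.6) complete the leading falls, with log2 fold changes of -0.52 and -0.41 in trex4039 in the authors' deposited table. A short row of ZNF565, 1508 bases long inside the ZNF565 and ZNF146 loci, went from 90.1 to 48.4 with a log2 fold change of -0.56, while the full ZNF565 row went from 262.6 to 325.5 a rise of 0.27 on the log2 scale, per the authors' deposited table. The 2 rows of the gene thus have opposite signs. No source used here states the strand setting of the counting, so the reads of ZNF565 and ZNF146 at this place cannot be told apart.

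**Figure D3:**
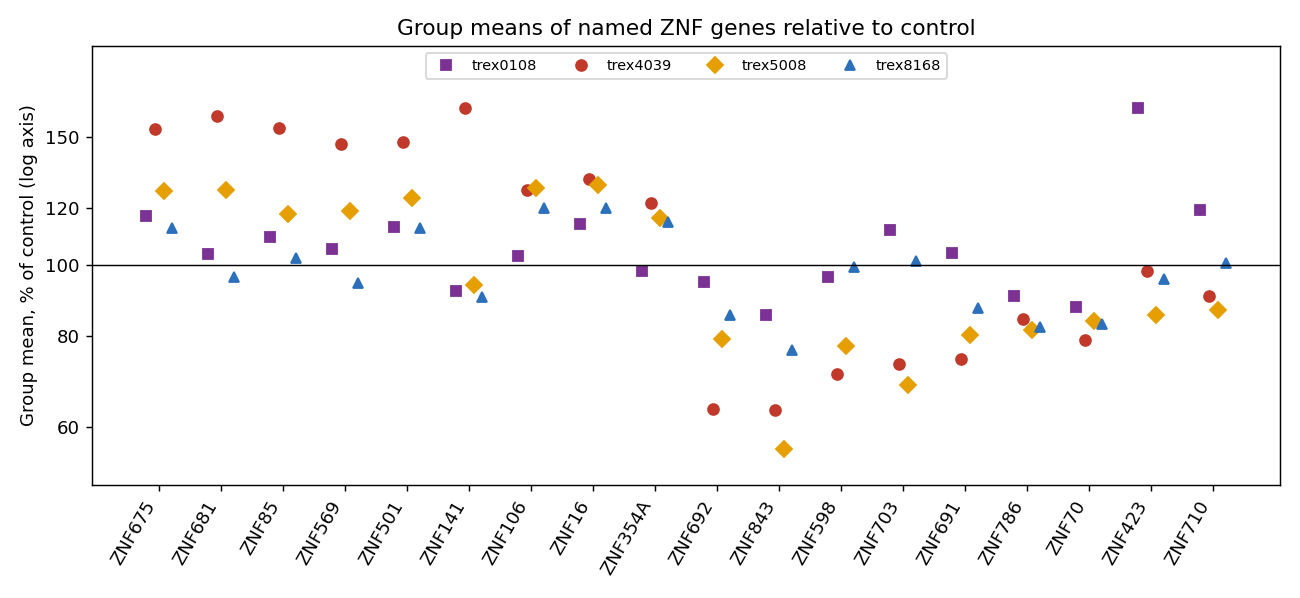
Group means of 18 named ZNF genes in the 4 target groups as a percentage of the control mean (y axis, logarithmic; the line marks 100%). ZNF675, ZNF681, ZNF85, ZNF569, ZNF501 and ZNF141 are highest in trex4039, ZNF598 and ZNF703 are low in trex4039 and trex5008, and ZNF423 and ZNF710 stand above control in trex0108.

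In trex5008 the called members with a KRAB pattern were again nearly all higher than control; this comparison uses the same control libraries as trex4039. Of 146 members tested, 50 rose and 25 fell, where 29.8% and 24.3% of all listed rows tested did in the authors' deposited table. In either direction 75 were called, beside 54.1% of listed rows. The median log2 fold change was 0.121, against 0.017 over all listed rows. With the KRAB pattern 34 of 82 rose and 2 fell (ZNF746 and ZNF786), and without it 16 of 64 rose and 23 fell. On chromosome 19, 23 of 57 rose and 3 fell, with a median of 0.162, and elsewhere 27 of 89 rose and 22 fell, with a median of 0.085. GC content again moved with the direction, at a median of 41.3% for risen and 60.8% for fallen members, and the members' median was -0.021 with the GC trend removed.

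The leading rises in trex5008 were the full row of ZNF302 (1565 in control, 2072 in trex5008, log2 fold change 0.39), ZNF582 (230.6 and 305.4, 0.36), ZNF420 (705.2 and 911.8, 0.35), ZNF16 (980.1 and 1263, 0.34), ZNF570 (487.8 and 634.4, 0.34) and ZNF181 (472.2 and 605.7, 0.33) in the authors' deposited table. All but ZNF16 lie on chromosome 19. The leading falls were ZNF843, at -0.65 (adjusted p 1.25e-06), and ZNF703, at -0.52 (adjusted p 7.15e-14), in the authors' deposited table. ZNF385A, a regulator of p53 targets, followed at -0.42, ZNF335, a gene of inherited microcephaly, at -0.38, ZNF598 at -0.35 and ZNF692 at -0.31. ZNF469, a gene of brittle cornea syndrome, had a mean of 54.6 in control and 29.8 in trex5008 with a log2 fold change of -0.47, and its mean over all libraries lies under 50. ZNF746 (PARIS), a substrate of the ubiquitin ligase parkin, fell by 0.27 in trex4039 and by 0.26 in trex5008, and ZNF687, a subunit of a ZMYND8 complex, by 0.22 and by 0.25, in the authors' deposited table.

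The trex8168 comparison had few calls, and most of those were falls. Of 146 members tested, 3 rose and 11 fell, where 14.6% and 6.45% of all listed rows tested did in the authors' deposited table. This is 2.05% and 7.53% of the members, so the share that fell was near the background and the share that rose was below it. The median log2 fold change was -0.002, against 0.036 over all listed rows. On chromosome 19, 0 of 57 rose and 6 fell (ZNF66, ZNF507, ZNF382, ZNF234, ZNF331 and ZNF552), and elsewhere 3 of 89 rose and 5 fell. Over listed protein-coding rows 1211 rose and 333 fell. Within GC ranges the members lay below the other genes up to 55% GC. Their median was -0.071 against 0.074 below 40%, 0.02 against 0.111 at 42% to 45%, and -0.037 against 0.033 at 50% to 55%; at 55% or more it was -0.006 against -0.021. With the GC trend removed the members' median was -0.067, and the 11 fallen members all retained the sign and 0.5 or more of the size. The other genes' medians were positive in every range up to 55% GC and only -0.021 beyond it. Removal of this trend could hardly shrink a fall, so the retention of all 11 is no check on them.

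The largest fall in trex8168 was of ZNF66, with means of 148.9 in control, 141.2 in trex0108, 143.4 in trex4039, 137.2 in trex5008 and 102.1 in trex8168 and a log2 fold change of -0.39 (SE about 0.13, adjusted p 0.0218, authors' deposited table). The trex8168 mean stands below the other 4, which lie close together. ZNF37A had means of 2359, 2460, 2447, 2504 and 1925 in the same order, for a log2 fold change of -0.27 (adjusted p 0.00519, authors' deposited table). ZNF331, an imprinted KRAB gene, had means of 1470, 1487, 1450, 1481 and 1264, for a log2 fold change of -0.21 (adjusted p 0.00491, authors' deposited table). ZNF382 went from 405.7 in control to 335.1 (-0.25) and ZNF552 from 661.8 to 558.1 (-0.23) in trex8168, per the authors' deposited table. ZNF234, ZNF37A, ZNF331, ZNF382, ZNF507 and ZNF66 were called in trex8168 and in no other comparison. The share of all listed rows that fell in trex8168 alone was not counted, so whether this pattern is usual is not known. Whether the change of these members differs from that in the other groups was not tested.

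In trex0108 the calls on members were 7 rises and 0 falls, and the median log2 fold change was 0.037, against 0.02 over all listed rows. In this comparison 5.65% of all listed rows rose and 0.249% fell in the authors' deposited table, so the share of members that rose (4.73%) was near the background. On chromosome 19, 3 of 58 rose, and elsewhere 4 of 90. No member had an adjusted p under 0.1 with a lower value. The 7 members had a median GC content of 54.7%, and removal of the GC trend left all 7 with the same sign and 0.5 or more of their size. Medians of other genes ran only from -0.037 to 0.069 over the GC ranges. Removal of so small a trend could hardly change rises of this size, so it is no check on them.

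ZNF575 (chromosome 19, 44010952 to 44047324, hg19), a gene with 6 fingers and no KRAB pattern, rose most in trex0108. Its low counts allowed the values of single libraries to be rebuilt. Its normalised count was 13.02, 19.6 and 20.6 in the control libraries, which is 17.7 ± 4.12 (SD, n = 3), and 68.7, 71.3 and 91.0 in trex0108, which is 77.0 ± 12.2 (SD, n = 3). It was 10.7, 12.9 and 18.7 in trex4039, 10.1, 11.1 and 14.99 in trex5008, and 12.9, 13.8 and 26.2 in trex8168. The trex0108 libraries lie above every other library, and the other 4 groups overlap. At the trex0108 mean of 77.0 about 1.80 combinations of whole reads would match by chance and 1 was found, so the split over its 3 libraries is less certain than in the other groups, while the group mean does not rest on it. The ratio of trex0108 to control was 4.34. The exact two-sided permutation test gave p = 0.10, the smallest that 3 against 3 libraries allow, and 0.25 after Benjamini-Hochberg adjustment over 27 such tests. The deposited log2 fold change is 1.09, and the authors' deposited table has it at an adjusted p of 1.47e-12.

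**Figure D4:**
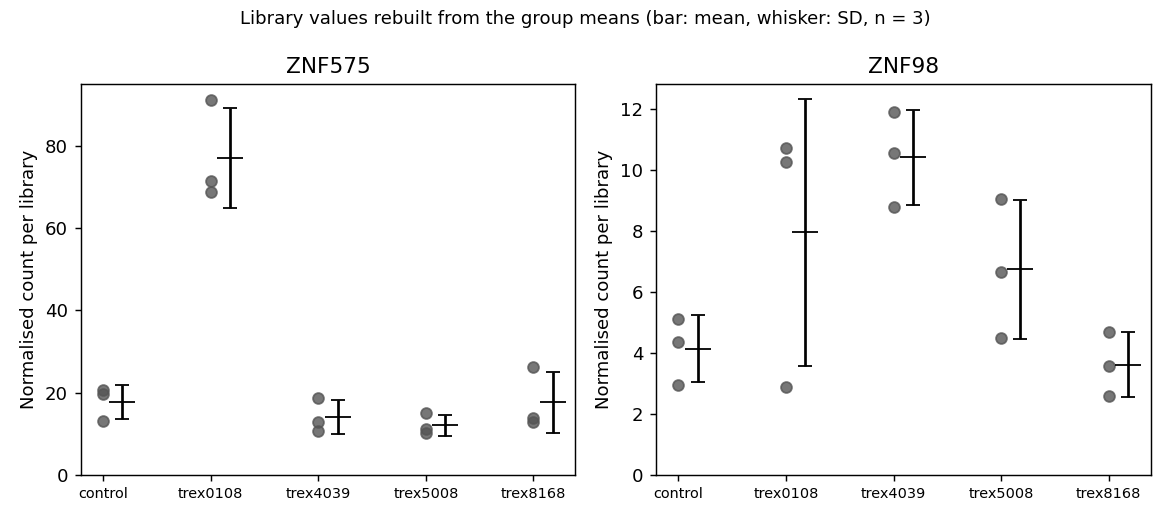
Normalised counts of ZNF575 and ZNF98 in each library (y axis, from 0), rebuilt from the group means; dots are libraries, bars and whiskers the mean and SD of 3 libraries. ZNF575 lies between 68.7 and 91.0 in trex0108 and at 26.2 or less in the other libraries, and ZNF98 lies between 8.77 and 11.9 in trex4039.

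ZNF423, a factor with 28 fingers that works with SMAD and EBF proteins in development, had means of 720.1 in control, 1185 in trex0108, 708.2 in trex4039, 615.3 in trex5008 and 689.3 in trex8168. Its level is high in trex0108 alone among the 5 means, with a log2 fold change of 0.65 (SE about 0.083, adjusted p 3.6e-13, authors' deposited table). ZNF467 went from 717.5 to 982.7 (log2 fold change 0.42), ZNF45 from 1247 to 1668 (0.40), ZNF227 from 1106 to 1335 (0.26), ZNF710 from 2385 to 2841 (0.24) and ZNF740 from 2554 to 3001 (0.23) in the authors' deposited table. ZNF45 and ZNF227 are KRAB genes, and the other 5 risen members have no KRAB pattern.

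ZNF575, ZNF45 and ZNF227 lie in 1 stretch of chromosome 19 (44010952 to 45004587, hg19), which holds 9 members within 0.994 Mb. The stretch has 19 listed rows, 9 members and 10 others. In trex0108, 3 members and 2 other rows, KCNN4 and the unnamed XLOC_031969, rose, and 0 fell, where 5.65% of all listed rows rose and 0.249% fell. Whether the stretch differs from other rows was not tested. KCNN4, a potassium channel gene, went from 9.08 to 24.3 with a log2 fold change of 0.43 (adjusted p 0.0385), and XLOC_031969, which overlaps ZNF227, from 1369 to 1582 (0.20), in the authors' deposited table. Members between and beside them did not pass the threshold: ZNF230 had 381.6 and 380.1, ZNF234 had 728.5 and 715.6, ZNF233 had 114.8 and 121.6, and ZNF180 had 762.2 and 836.7.

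Members of chromosome 19 less than 500 kb apart and at least 5 in number formed 5 clusters. Their counts in trex4039 stand beside 37.1% higher and 33.7% lower among all listed rows, and differences between clusters were not tested. In the cluster from ZNF66 to ZNF43, 4 of 6 rows rose, led by ZNF85. In that from ZNF565 to ZNF570, 10 of 12 rose and 1 fell, led by the short row of ZNF565 (fallen) and by ZNF569 (risen). In the cluster from ZNF575 to ZNF180, 6 of 9 rose, led by ZNF180 and ZNF233 at a log2 fold change of 0.36. All 5 rows from ZNF175 to ZNF766 rose, led by ZNF615 and ZNF614 at 0.35. In the distal cluster from ZNF543 to ZNF329, 2 of 8 rose (ZNF671 and ZNF329) and 2 fell (ZNF551 and ZNF552). In trex5008 0, 7, 4, 4 and 0 rows rose in this order of clusters and 0 fell, beside 29.8% and 24.3% of all listed rows. Median transcript GC content was 37.4%, 40.4%, 42.9%, 42.6% and 46.3% in the same order. The map of fold changes along chromosome 19 shows the order of rows.

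**Figure D5:**
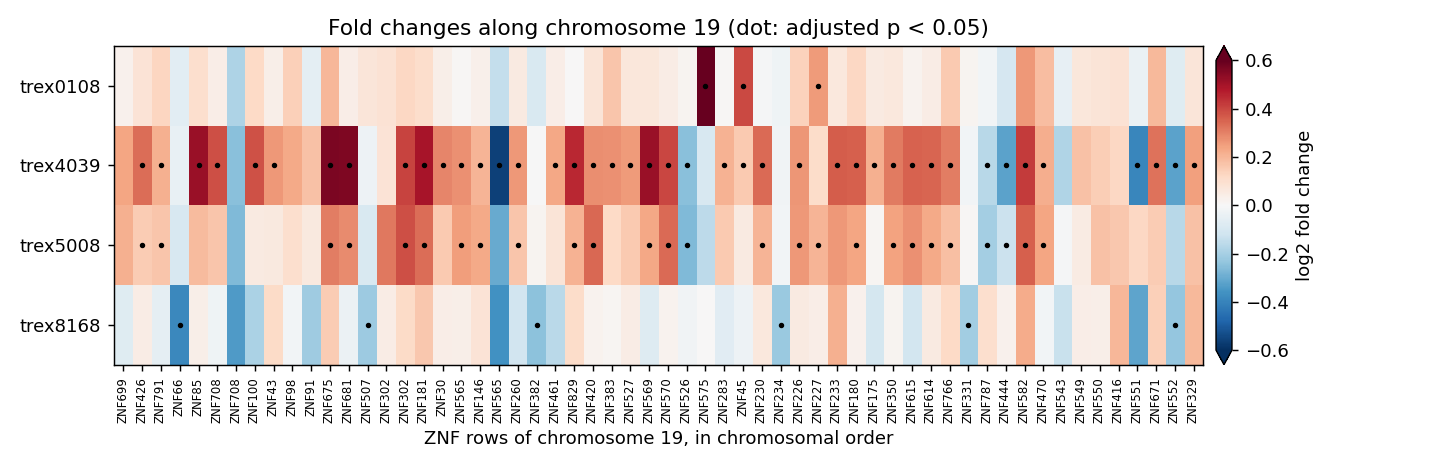
Deposited log2 fold change (colour, saturated at 0.6) of the 58 ZNF rows of chromosome 19 in chromosomal order (x axis) in the 4 comparisons (rows); dots mark an adjusted p under 0.05. Red prevails in trex4039 and trex5008, with 36 and 23 risen rows, the 3 dots in trex0108 lie in the cluster from ZNF575 to ZNF180, and the 6 dots in trex8168 are falls.

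Across the 5 group means, trex4039 was the highest group for 77 of 148 members (52.0%), against 33.7% of all listed rows. It was highest for 36 of 58 members on chromosome 19 (62.1%) and for 41 of 90 elsewhere (45.6%). Control was the lowest group for 28 of 58 members on chromosome 19 (48.3%) and 25 of 90 elsewhere (27.8%), which is 35.8% of members and 35.7% of all listed rows. The members' median level relative to control was 117.0% in trex4039, 109.8% in trex5008, 102.9% in trex0108 and 99.81% in trex8168. On chromosome 19 it was 120.9%, 113.8%, 104.8% and 101.4%, and elsewhere 113.4%, 106.9%, 100.9% and 99.51%. With the KRAB pattern it was 121.2% in trex4039 and without it 96.44%. The sum of the means of chromosome 19 members was 115.5% of control in trex4039 and 99.41% in trex8168. Since fold changes are relative to the other genes of a library, less RNA of other genes and more RNA of members cannot be told apart.

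Of the 148 members, 124 were called in at least 1 comparison and 24 in none, which is 83.8% and 16.2%, against 85.8% and 14.2% of all listed rows. Called in 1 direction in all 4 were 0 members and 0.338% of all listed rows. ZNF106, ZNF16 and ZNF354A rose in trex4039, trex5008 and trex8168, which share their control, as did 7.41% of all listed rows against 2.03% of members. ZNF16 had means of 980.1 in control, 1117 in trex0108, 1289 in trex4039, 1263 in trex5008 and 1176 in trex8168, with control the lowest. ZNF106, an RNA-binding protein, had means of 4143, 4267, 5258, 5294 and 4973. ZNF354A, a KRAB gene, had 776.7, 763.4, 947.1, 900.6 and 889.5. ZNF691, ZNF692, ZNF70 and ZNF786 fell in the same 3 comparisons, 2.7% of members against 3.47% of all listed rows. ZNF70 had means of 1252, 1098, 987.1, 1050 and 1040, and ZNF786 had 1113, 1010, 940.2, 906.8 and 916.1, so that control is the highest of the 5 means for both.

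Differences between targets were tested for members called in both comparisons, with the approximate SE, the covariance from the shared control set to 0, and Benjamini-Hochberg adjustment over 85 pairs. With the number of tests set to the listed rows 3 pairs passed, and with the highest locus number (69629) as the number of tests 4 passed. ZNF423 and ZNF710 rose in trex0108 and fell in trex5008, with differences of 0.86 (adjusted p 3.37e-10) and 0.43 (adjusted p 0.001089) on the log2 scale. ZNF692 fell further in trex4039 than in trex8168, by -0.39 (adjusted p 0.006849). ZNF569 rose further in trex4039 than in trex5008, by 0.29, with an adjusted p of 0.05024 or 0.02083 depending on the number of tests.

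Low members with rebuilt libraries show the spread behind small means. ZNF98, a KRAB gene of 19p12, had 2.94, 4.34 and 5.12 in control, 2.89, 10.2 and 10.7 in trex0108, 8.77, 10.5 and 11.9 in trex4039, 4.48, 6.66 and 9.05 in trex5008 and 2.58, 3.57 and 4.69 in trex8168. The trex4039 libraries lie above the control libraries, while 1 trex0108 library lies just below them. The ZNF551 row had 24.7, 25.5 and 43.4 in control and 8.20, 15.6 and 20.8 in trex4039, without overlap. Its control libraries are spread over the widest range of its rebuilt groups. The deposited log2 fold change of the ZNF551 row is -0.39 (adjusted p 0.0176, authors' deposited table), and it overlaps the ZNF671 row, which rose by 0.32. Exact permutation tests of ZNF98 and ZNF551 in trex4039 gave p = 0.10 each, the smallest possible with 3 against 3 libraries.

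The KRAB pathway's partner genes were listed in part, 15 of 36, and 14 of these are described here. Of the 14, 8 rose and 2 fell in trex4039, where 37.1% and 33.7% of all listed rows did. The 8 have transcript GC contents of 37.8% to 48.0%. In trex4039 88.0% of other listed protein-coding rows below 40% GC rose, and 80.4% at 40% to 42%. At 42% to 45% it was 74.8%, and at 45% to 50% it was 52.6%. Whether the partners differ from rows of like GC was not tested. In trex5008 9 rose and 1 fell, beside 29.8% and 24.3%, in trex8168 2 rose and 0 fell, beside 14.6% and 6.45%, and in trex0108 2 rose and 0 fell, beside 5.65% and 0.249%. TRIM28, the corepressor itself, had means of 24460 in control, 27210 in trex0108, 20100 in trex4039, 21500 in trex5008 and 25030 in trex8168, with log2 fold changes of 0.15, -0.28 (adjusted p 6.07e-09), -0.18 and 0.03 in the authors' deposited table. Its mean was lowest in trex4039 and highest in trex0108, where the median level of members with the KRAB pattern was 121.2% and 103.6% of control. Whether its level is linked to theirs was not tested, and the TRIM28 transcript has 63.7% GC. HDAC2, a deacetylase of NuRD, was higher in all 4 comparisons, from 9937 in control to 11700 to 12230, with log2 fold changes of 0.23 to 0.29 in the authors' deposited table.

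SMARCAD1, a remodeller that binds TRIM28, went from 2995 to 3968 in trex4039 (log2 fold change 0.39), FAM208A, the TASOR subunit of HUSH, from 4786 to 5988 (0.31), CBX3, a heterochromatin protein, from 6744 to 8187 (0.26), and SUV39H2, an H3K9 methyltransferase, from 2735 to 3170 (0.20) in the authors' deposited table. PPHLN1 of HUSH and ATF7IP, the partner of SETDB1, rose by 0.21 each in trex4039, and PIAS1, a SUMO ligase, by 0.18. MORC2, an ATPase of the HUSH pathway, fell by 0.22 in trex4039. ATRX rose by 0.20 and MPHOSPH8 by 0.16 in trex5008, and SUMO2 rose by 0.25 in trex8168. Of 44 ZNF genes listed for known roles, 13 are members with values here. Of the 13, ZNF622, a factor of 60S ribosome assembly, rose by 0.18 in trex5008, ZNF589 fell by 0.26 in trex4039, and ZNF830 and ZNF91 were called in no comparison.

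Members of other zinc finger families were listed too. In trex4039, where 37.1% of all listed rows rose and 33.7% fell, 20 of their rows rose and 21 fell, and in trex5008 6 rose and 20 fell, beside 29.8% and 24.3%. In trex4039, of 20 listed ZBTB genes, 8 rose and 7 fell, of 7 ZFP genes 3 rose and 4 fell, of 8 ZC3H genes 3 rose and 4 fell, and of 7 KLF genes 1 rose and 2 fell, against 78 and 28 of 148 ZNF rows. In trex5008 0 ZBTB genes rose and 7 fell, and 0 KLF genes rose and 3 fell. Whether the families differ from ZNF was not tested. In trex0108 7 rows of these families rose and 0 fell, beside 5.65% and 0.249% of all listed rows and 7 of 148 ZNF members risen. The 7 were all 3 listed EGR genes, with a median log2 fold change of 0.50, 2 of 20 ZBTB, 1 of 8 ZC3H and 1 of 7 KLF genes. Of 7 ZFP and 6 SP genes 0 rose.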

How the data were processed

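PolyA RNA of 15 HEK293FT libraries, 5 groups of 3 by title, was analysed from 1 deposited table (hg19). DESeq2 1.14.1, DESeq, Cufflinks, STAR 2.5.1b, Bowtie2 2.2.1 and bedtools are named, without roles, per the submitters' processing notes; strand setting and annotation are not given in the sources used here. The authors' deposited signal columns hold, for each group, the mean of normalised counts. The log2 columns are the authors' deposited shrunken fold changes, smaller in size than ratios of means. The p-value columns are the authors' deposited adjusted p, and their call columns equalled an adjusted p under 0.1 with 0 mismatches. Since counts per library were not used here, the planned count model was not fitted, and the deposited adjusted p under 0.05 was counted as given.

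Members and lists were chosen with earlier results of these data known. Genes named are in each comparison the 6 members that rose most and the 6 that fell most, among those called with a mean of at least 50, the 5 highest means, called members of the role and cofactor lists, cluster ends and leaders, and members called alike in several comparisons; others were chosen after their values were seen. Library values were rebuilt where exactly 1 combination of whole reads gives a group mean: 40 of 50 group means of 10 rows with a mean under 60. All 3915 group means under 20 had at least 1 combination within the rounding of the deposited digits (about 7.5e-06 at a mean near 20), and 3898 had exactly 1. Reference transcripts, GC content and the KRAB pattern (up to 3 mismatches at 9 residues, set after seeing the distribution, and known to miss KRAB genes such as ZNF133) came from GENCODE 29 (GRCh38). The GC trend was a lowess fit (fraction 0.3, statsmodels 0.14.6) over 6377 listed protein-coding rows. Ratios used a pseudocount of 1. Python 3.11.15, pandas 2.3.3, numpy 2.4.6, scipy 1.17.1 and Biopython 1.88 were used, and the computations were tested on simulated data. Intervals of counting error cover counting only, since reads are not independent molecules. Where triplicates share a culture, p-values measure only the spread between these samples. A marker gene and a partner gene of the fixed lists are not reported here.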

Additional observations from a re-analysis of the deposited data

Results flagged for a closer look

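A test of the difference between 2 targets singled out 3 results among 85 pairs of called members. ZNF423 was higher in trex0108 and lower in trex5008, and the fold changes differed by 0.86 on the log2 scale (adjusted p 3.37e-10). ZNF710 showed the same opposition with a difference of 0.43 (adjusted p 0.001089). ZNF692 fell in both trex4039 and trex8168, and the difference was -0.39 (adjusted p 0.006849). The test assumes independent errors although the comparisons share their control libraries, and it rests on approximate standard errors. The fall of ZNF423 in trex5008, from 720.1 to 615.3, is near the threshold (adjusted p 0.0478 in the authors' deposited table).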

How the results depend on the processing

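No paired analysis was possible because the deposited columns are group means and carry no replicate numbers; leaving out each library could not be run for the same reason. Of 68 alternative values, 46 stayed close to the reported one, 18 moved and 4 turned. With the GC trend removed, the called members that kept direction and 0.5 of their size were 15 in trex4039, of which 6 were higher and 9 lower, and 13 in trex5008. The difference of medians between chromosome 19 and elsewhere was then 0.015 in trex0108, -0.016 in trex4039, 0.039 in trex5008 and -0.011 in trex8168, against 0.046, 0.069, 0.078 and 0.024 as reported; the trex4039 and trex8168 differences change sign. Split by KRAB pattern instead, and without removal of the GC trend, the difference was 0.305 in trex4039, 0.252 in trex5008 and 0.013 in trex8168. With the GC trend removed, the medians with and without the pattern were 0.003 and 0.011 in trex4039. They were -0.026 and -0.002 in trex5008, and -0.083 and -0.035 in trex8168. Leaving out members that overlap another listed row left 81. Calls among these were 3 in trex0108, 58 in trex4039, 46 in trex5008 and 6 in trex8168. A smaller set cannot give more calls, so these counts, though among the 18 that moved, do not measure dependence on overlap. In trex4039 59.3% of the 81 rose and 12.3% fell, against 52.7% and 18.9% of all members. In trex5008 34 of 80 tested rose and 12 fell, against 50 and 25 of 146. In trex0108 3.7% rose, against 4.73%. In trex8168 1.25% rose and 6.25% fell, against 2.05% and 7.53%. The chromosome difference among the 81 was 0.043 in trex4039 and 0.018 in trex5008. At an adjusted p under 0.01 the calls were 43 in trex5008 and 5 in trex8168. Those of partner genes, counted over all 15 listed and not the 14 described, were 1 in trex0108 and 7 in trex5008. Under 0.1, trex8168 had 29 calls (9 higher, 20 lower), and other zinc finger families had 49 in trex4039, where the balance turned to 26 higher and 23 lower, and 9 in trex8168. Filters on the mean, the log2 ratio of means, centring and added ZFP, ZSCAN, ZKSCAN, ZIM and ZIK genes stayed close. Centring, and direction from the log2 ratio of means, leave the adjusted p as it is. The number of calls could not change under them, though they are counted among the 46. Depth limits low members most: a mean of 10 rests on 29 to 33 reads, a counting error of 17.3% to 18.7%.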

Other observations

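Several short or low rows carry a ZNF symbol and have values unlike those of the main row of the gene or of the gene around them. The short ZNF708 row inside the main ZNF708 locus had library values of 22.2, 33.3 and 39.9 in control and 16.4, 16.7 and 18.1 in trex8168, which do not overlap. The main ZNF708 row had means of 1002 in control and 983.2 in trex8168, and in trex4039 it rose to 1338 while the short row had 31.8 in control and 20.7 in trex4039. The ZNF117 row, 4023 bases inside the ZNF273 locus, had 28.6, 29.9 and 32.3 in control and 8.77, 11.7 and 27.8 in trex4039, while ZNF273 rose from 792.0 to 1018. A ZNF609 row of low mean had 4.90, 7.68 and 11.3 in control and 1.17, 1.98 and 3.90 in trex4039. None of these short or low rows reached an adjusted p under 0.05, the threshold used here, in the comparison given. The adjusted p in the authors' deposited table was 0.165 for the short ZNF708 row in trex4039 and 0.083 in trex8168. It was 0.053 for ZNF117 and 0.083 for ZNF609 in trex4039. All but the short ZNF708 row in trex4039 lay under 0.1, the threshold of the authors' own calls. Exact permutation tests of 3 against 3 libraries cannot pass 0.05 here, and these rows were chosen after their values were seen.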
